A study of Mus musculus with 24 samples.

Results

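Matrix metalloproteinases (MMPs) are zinc-dependent proteases that cleave collagens, laminins and other proteins around cells, and the tissue inhibitors of metalloproteinases (TIMPs) bind and block their active site. MMPs are made as inactive proenzymes. MMP14, which is anchored in the cell membrane, activates proMMP2 with the help of TIMP2. In the pancreas both families are best known from stellate cells, fibroblasts and vessels, which lay down much of the matrix that surrounds islet cells.

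The genes described were the rows of the deposited mouse islet table named Mmp2, Mmp3, Mmp11, Mmp14, Mmp15, Mmp16, Timp1, Timp2, Timp3 and Timp4, which are 10 of its 41549 genes. They were measured by stranded mRNA sequencing of wild-type pancreatic islet cells, dispersed and transfected with 50 pmol of antisense oligonucleotide (ASO), either a control (Ctr) or one against the 5'tRF-Glu(CTC), a fragment from the 5' end of a glutamate tRNA (αGlu). The cells were then kept for 48 h in 0.5 mM palmitate bound to BSA (PA) or in 0.75% BSA alone. The 24 libraries fall into BSA and PA groups with each ASO, 6 libraries to a group, and every group has 3 libraries in batch 1 (S1 to S12) and 3 in batch 2 (S13 to S24). No source used here says what a batch stands for. The study's methods name C57BL/6NRj mice of both sexes, 12 to 14 weeks old, as its wild-type animals, and describe independent experiments in which the groups of a replicate came from the same animal. The labels do not say which libraries shared one, so libraries were compared unpaired. The ASO is shown because it is the treatment the αGlu groups share, and its sequence comes from the study's oligonucleotide list.
αGlu ASO: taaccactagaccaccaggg

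Library totals ran from 18214719 to 35001979 counts. The 9 beta-cell markers summed to between 83829 and 151648 CPM, which are counts scaled to the size of the library, in every library, so the labelled islet cells are there. The preparations also held other cells. Summed CPM of 10 acinar markers was 3106 to 22637 in batch 1 and 224 to 613 in batch 2, and that of 12 fibroblast and stellate markers 14.9 to 1121 over all libraries. Library S18 of αGlu BSA had the highest fibroblast and stellate sum and S8 the highest of αGlu PA. RNA was taken from whole cultures, so fewer cells of a type and less RNA per cell cannot be told apart.

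In Ctr BSA cells the inhibitors were the most abundant members per transcript length. On the TPM scale, which corrects for gene length, Timp2 had a median level of 32.7 (25.2 to 61.9), Timp1 23.98 (15.6 to 70.6) and Timp3 21.6 (15.02 to 42.6), and the ranges of these neighbours overlapped. The membrane-bound proteases Mmp14, at a median of 9.49 TPM (5.68 to 14.2), and Mmp15, at 7.92 TPM (5.18 to 25.8), came next, and the range of Mmp14 lay below that of Timp3. Mmp2 (2.67 TPM), Mmp11 (1.39 TPM) and Mmp16 (0.43 TPM) followed. Mmp3, the stromelysin that cleaves proteoglycans and other MMPs, and Timp4 were near the floor of detection. Timp4 had 12 counts in all 24 libraries together and no more than 2 in any, and Mmp3 had 949 counts, of which 929 were in library S21 of Ctr BSA. These 2 genes did not pass the filter on low counts, and 8 of the 10 members were tested.

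PA lowered the levels of most of the abundant members. In Ctr cells Timp1, Timp2, Timp3 and Mmp14 fell and Mmp15 rose, so that 5 of 8 tested members passed an adjusted p of 0.05 (edgeR quasi-likelihood test with Benjamini-Hochberg adjustment over all genes tested). Of all 15916 genes tested, 30% passed in this comparison, 14.5% lower and 15.5% higher. The median log2 fold change was -1.19 over the 8 members and 0.0074 over all genes. In αGlu cells the same 5 members and Mmp11 passed, 6 of 8, where 28.5% of all genes passed, 14.2% lower and 14.4% higher. The median there was -1.42 over the members and 0.0055 over all genes.

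**Figure D1:**
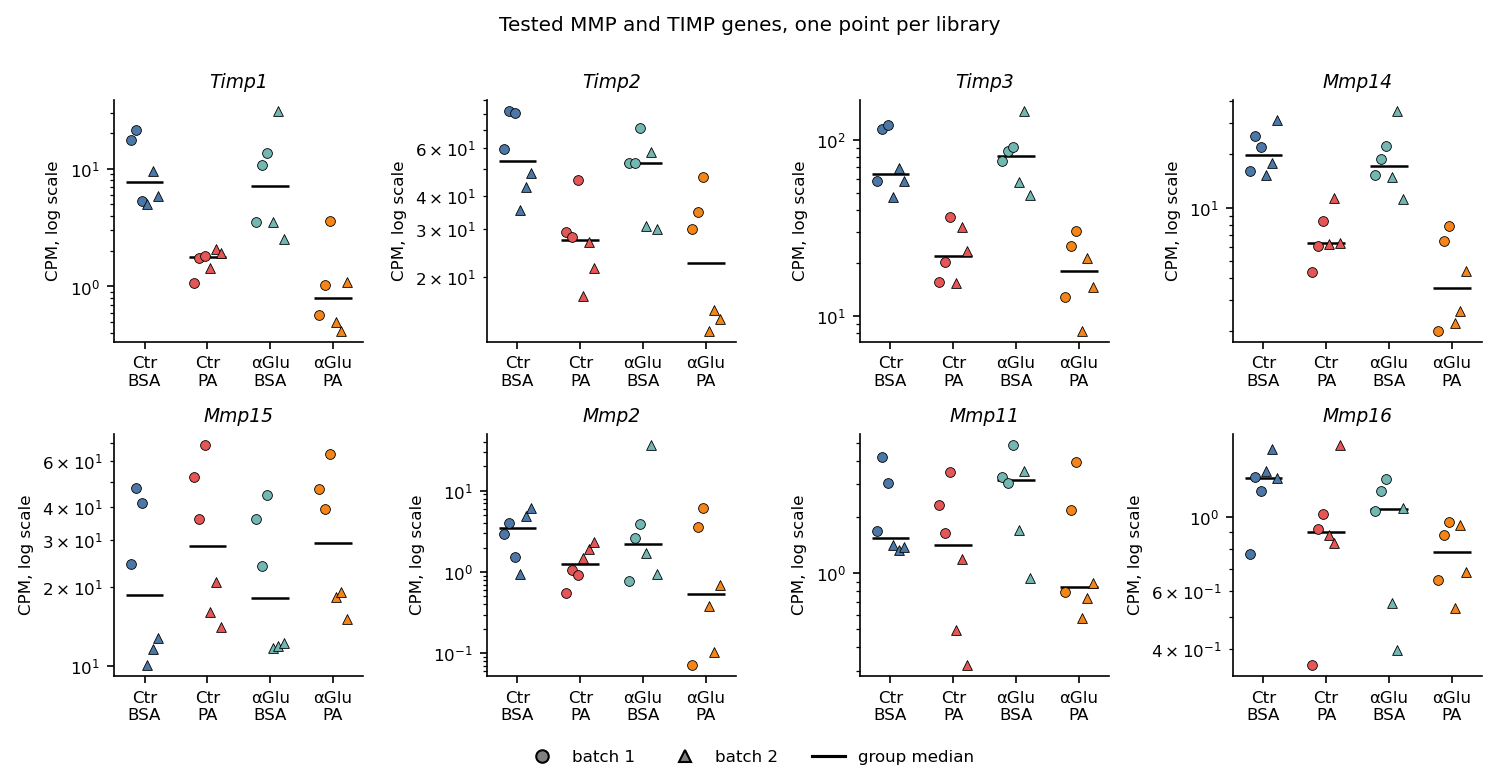
CPM of the 8 tested members in each library on log axes, with circles for batch 1, triangles for batch 2 and a bar at the median of each group of 6. Timp3 and Mmp14 in PA lie below BSA without overlap with either ASO, while Mmp15 separates by batch more than by treatment. Of all genes tested, 2.86% in Ctr and 3.95% in αGlu cells were lower in PA without overlap.

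Timp1, a secreted inhibitor known to be induced in activated stellate cells and fibroblasts, showed the largest fold change of the 8 tested members in both PA comparisons. Its CPM was 4.97 to 21.3 (median 7.67) in Ctr BSA and 1.08 to 2.06 (median 1.78) in Ctr PA, so all 6 PA libraries lay below all 6 BSA libraries. Among all genes tested, 2.86% were lower in PA without overlap. Timp1 was 6.06-fold lower with PA (log2 fold change -2.60, SE 0.57, adjusted p = 0.0013). Within batch 1 the log2 fold change was -3.26 (adjusted p = 0.0092), and within batch 2 it was -1.90 and did not pass (adjusted p = 0.125). In αGlu cells the range was 2.51 to 30.9 CPM in BSA (median 7.11) and 0.42 to 3.59 in PA (median 0.81). The groups overlapped through S8, whose 3.59 CPM was above BSA libraries S22, S10 and S14 at 2.51, 3.52 and 3.55 CPM. The difference was 9.63-fold (log2 fold change -3.27, SE 0.60, adjusted p = 2.07e-04). It was -2.45 within batch 1 and -4.21 within batch 2, and both passed, while without S18, which held the 30.9 CPM, it was -2.39.

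Timp3, an inhibitor that binds to the matrix and also blocks ADAM and ADAMTS proteases, fell with both ASOs. It ran from 47.0 to 121.5 CPM (median 63.7) in Ctr BSA and from 15.3 to 36.5 (median 21.8) in Ctr PA. In αGlu cells it ran from 48.4 to 145.5 CPM (median 81.3) in BSA and from 8.21 to 30.4 (median 17.9) in PA. No PA library reached a BSA library with either ASO, and the share of all genes lower without overlap was 3.95% in αGlu cells. The log2 fold change was -1.68 in Ctr cells (SE 0.29, adjusted p = 1.33e-04) and -2.20 in αGlu cells (SE 0.30, adjusted p = 6.37e-06). Within batches it was -2.04 and -1.31 in Ctr cells, the second with an adjusted p of 0.0553 in batch 2 alone, and -1.91 and -2.51 in αGlu cells.

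Timp2, which is widely expressed and takes part in the activation of proMMP2, also fell with both ASOs. Its CPM was 35.4 to 82.05 (median 53.9) in Ctr BSA and 16.97 to 45.8 (median 27.5) in Ctr PA. In αGlu BSA it was 30.1 to 71.0 (median 53.0), and in αGlu PA 12.7 to 47.0 (median 22.6). The ranges overlapped through PA libraries of batch 1, S7 in Ctr and S4 and S8 in αGlu cells. Within each batch every PA library was below every BSA library of the same ASO. That sets 3 libraries against 3, and the share of all genes separated this way was not computed. PA gave a log2 fold change of -1.03 in Ctr cells (SE 0.19, adjusted p = 1.69e-04) and of -1.05 in αGlu cells (SE 0.19, adjusted p = 1.56e-04). Within batches the values were -1.12 and -0.96 in Ctr cells and -0.67 and -1.501 in αGlu cells, and the -0.67 of batch 1 did not pass (adjusted p = 0.0588).

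Mmp14, the membrane-type collagenase that activates proMMP2, moved with the inhibitors. It was 15.3 to 31.3 CPM (median 19.9) in Ctr BSA and 4.30 to 11.3 (median 6.27) in Ctr PA, and 11.2 to 35.1 (median 17.1) in αGlu BSA against 2.01 to 7.83 (median 3.49) in αGlu PA. With both ASOs every PA library was below every BSA library, as for 2.86% of all genes tested in Ctr cells and 3.95% in αGlu cells. The fall was 3.02-fold in Ctr cells (log2 fold change -1.59, SE 0.31, adjusted p = 3.74e-04) and 4.63-fold in αGlu cells (-2.21, SE 0.32, adjusted p = 1.45e-05), and it passed within each batch with either ASO, with log2 fold changes of -1.78 and -1.44 in Ctr cells and of -1.80 and -2.74 in αGlu cells.

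Mmp15, another membrane-type protease, moved the other way. In batch 1 it was 24.4 to 47.3 CPM in Ctr BSA and 36.3 to 68.9 in Ctr PA, and in batch 2 it was 10.1 to 12.8 and 14.1 to 20.9. The groups did not overlap in batch 2 and did in batch 1. Each had 3 libraries in a batch, and the share of all genes separated this way was not computed. With αGlu the ranges were 23.9 to 44.7 CPM in BSA and 39.5 to 64.0 in PA in batch 1, and 11.7 to 12.2 and 15.03 to 19.1 in batch 2. The log2 fold change was 0.51 in Ctr cells (SE 0.17, adjusted p = 0.0247) and 0.53 in αGlu cells (SE 0.17, adjusted p = 0.0192). In batch 1 alone it was 0.45 and 0.51 and did not pass (adjusted p = 0.346 and 0.294), and in batch 2 alone it was 0.57 and 0.55 and passed (adjusted p = 0.0267 and 0.0283). The call in Ctr cells was lost when S1, S7, S13 or S19 was left out, and that in αGlu cells without S2 or S8, at adjusted p of 0.0557 to 0.0850 in all.

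The promoters of these members are shown because Timp1, Timp3 and Mmp14 fell together while Mmp15 rose. Each line is the sequence before the RefSeq transcription start on GRCm38.p6, 5' to 3' on the gene's own plus strand. Capitals mark GGGCGG or CCGCCC, the core of the Sp1 site, and AGGAAG or CTTCCT, the PEA3 form of an ETS site. The lines cover chrX:20869916-20870165 for Timp1, chr10:86300162-86300371 for Timp3, chr14:54431348-54431597 for Mmp14 and chr8:95352046-95352267 for Mmp15. Those of Timp3 and Mmp15 end 40 and 28 bases before the RefSeq start, where the GENCODE M21 gene begins.
Timp1: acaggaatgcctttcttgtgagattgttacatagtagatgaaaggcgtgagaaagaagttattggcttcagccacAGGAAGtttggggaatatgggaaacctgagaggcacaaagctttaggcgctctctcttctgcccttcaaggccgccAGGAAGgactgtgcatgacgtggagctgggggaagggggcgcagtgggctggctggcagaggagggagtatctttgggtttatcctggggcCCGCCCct
Timp3: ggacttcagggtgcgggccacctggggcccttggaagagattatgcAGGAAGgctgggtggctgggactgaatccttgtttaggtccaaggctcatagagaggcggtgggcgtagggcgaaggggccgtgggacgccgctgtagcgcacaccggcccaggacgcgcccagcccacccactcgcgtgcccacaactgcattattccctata
Mmp14: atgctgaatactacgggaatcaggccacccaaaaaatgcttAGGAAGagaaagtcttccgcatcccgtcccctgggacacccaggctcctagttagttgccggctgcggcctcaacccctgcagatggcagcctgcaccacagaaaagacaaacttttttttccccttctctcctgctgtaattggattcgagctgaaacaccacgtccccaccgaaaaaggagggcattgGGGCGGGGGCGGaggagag
Mmp15: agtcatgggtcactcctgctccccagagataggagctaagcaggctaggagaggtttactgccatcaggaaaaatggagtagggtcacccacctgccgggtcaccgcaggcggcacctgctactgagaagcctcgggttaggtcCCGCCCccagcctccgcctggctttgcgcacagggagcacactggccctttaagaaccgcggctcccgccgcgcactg

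A RefSeq window was at hand for 8 members, and the 250 bases before the start were searched on both strands. The Sp1 core was found in 6 of these windows and in 32.7% of 32851 promoters of all genes. The PEA3 form was found in 5, those of Timp1, Timp3, Mmp14 and the untested Mmp3 and Timp4, and in 29.5% of all promoters. It was not found in those of Mmp15, which rose, of Timp2, which fell with both ASOs, or of Mmp11, which fell in αGlu cells only. The windows of Timp2 (chr11:118355412-118355661) and Mmp11 (chr10:75932503-75932752) lie inside the GENCODE M21 genes. On the minus strand these genes begin at 118355740 and 75936496. Both windows are among the 6 with the Sp1 core. Other forms of the ETS site were not searched. A CCGCCC of Timp3 lies in its 40 bases not shown. The AP-1 site TGAGTCA or TGACTCA was found in 1, that of Mmp3, and in 4.46% of all promoters. Mmp3 was also the one member with TATAAA, searched on the gene's strand only, which 7.59% of all promoters held. A match is a stretch of letters and was not tested as a binding site.

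The secreted members Mmp2 and Mmp11 and the membrane-bound Mmp16 were the lowest of the tested members in TPM. Mmp2, a gelatinase that degrades collagen IV and denatured collagen, was 0.95 to 6.15 CPM (median 3.49) in Ctr BSA and 0.56 to 2.33 (median 1.27) in Ctr PA. These groups overlapped, and the log2 fold change of -1.36 did not pass (SE 0.89, adjusted p = 0.265). In αGlu cells it was 0.77 to 36.3 CPM (median 2.19) in BSA and 0.072 to 6.14 (median 0.53) in PA. Library S18 alone held the 36.3 CPM, and the log2 fold change there was -1.76 with it (adjusted p = 0.174) and -0.18 without it. Without S8, which held the 6.14 CPM of αGlu PA, it was -2.62 and passed (adjusted p = 0.0429). Within batches the same comparison gave 0.41 in batch 1 and -5.07 in batch 2 (adjusted p = 0.0221), and batch 2 includes S18. The 36.3 CPM of S18 stands beside the highest fibroblast and stellate marker sum of all libraries, and its part in the Mmp2 value was not tested.

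Mmp11, a protease that furin activates inside the cell, passed the test in αGlu cells. It ran from 1.33 to 4.18 CPM (median 1.55) in Ctr BSA and from 0.32 to 3.499 (median 1.41) in Ctr PA, and the log2 fold change of -0.61 did not pass (SE 0.37, adjusted p = 0.223). In αGlu cells it ran from 0.94 to 4.84 CPM (median 3.15) in BSA and from 0.57 to 3.94 (median 0.84) in PA. The log2 fold change was -1.08 (SE 0.37, adjusted p = 0.0300). The groups overlapped, and neither batch alone passed (adjusted p = 0.395 and 0.0817). The call was also lost without S6, S12, S16, S18 or S20, and without S18 the log2 fold change was -0.76 (adjusted p = 0.115). The difference between the responses of Ctr and αGlu cells was -0.47 and did not pass (95% confidence interval -1.53 to 0.60). Mmp16 was 0.77 to 1.61 CPM in Ctr BSA and 0.36 to 1.65 in Ctr PA, and its log2 fold changes of -0.42 in Ctr and -0.25 in αGlu cells did not pass (adjusted p = 0.318 and 0.596).

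**Figure D2:**
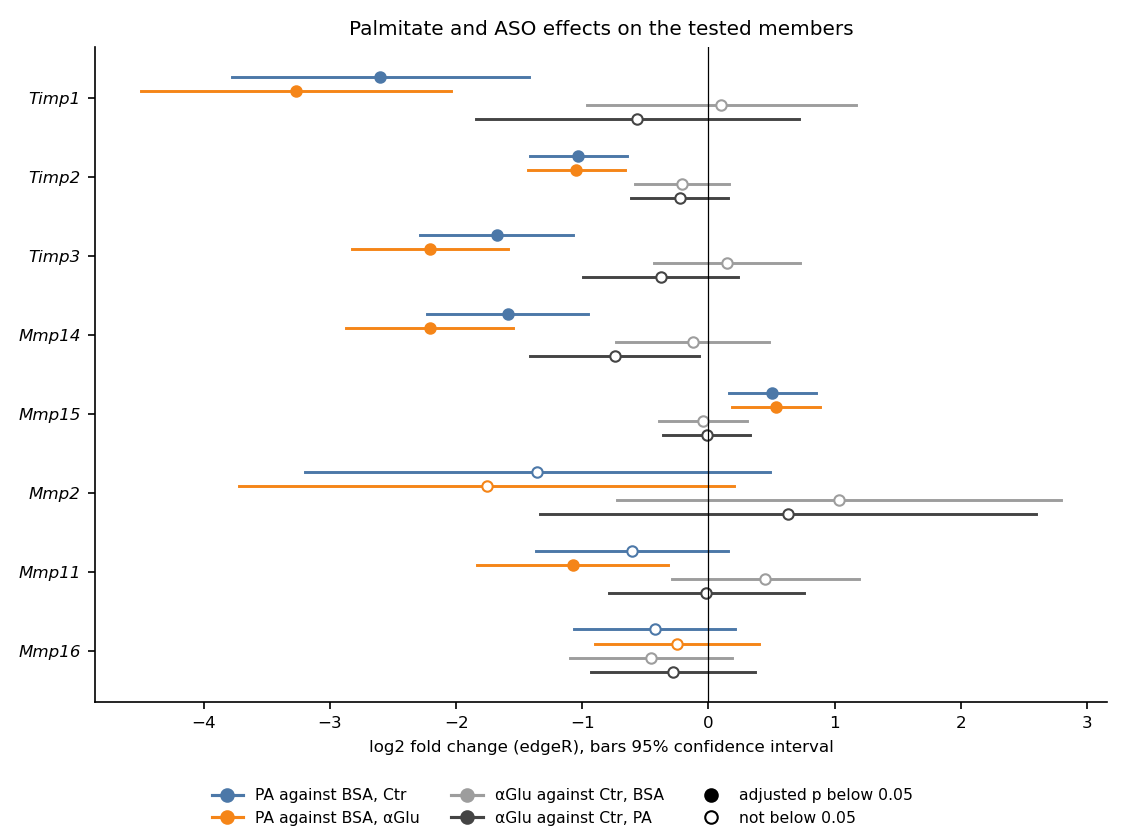
Log2 fold changes of the 8 tested members with 95% confidence intervals for PA against BSA with each ASO and for αGlu against Ctr under either treatment, with filled points where the adjusted p was below 0.05. All filled points belong to the PA comparisons, and Mmp15 is the member with filled points above 0.

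The αGlu ASO did not change any tested member past the threshold. In BSA 0 of 8 members passed and 0% of all genes did, with 461 genes (2.90%) at an unadjusted p below 0.05, none of them a member, and 8 genes called by DESeq2. In PA 0 of 8 passed, again with 0% of all genes, 538 genes (3.38%) at an unadjusted p below 0.05 and 30 genes called by DESeq2. Mmp14 was the 1 member among the 538. It was 4.30 to 11.3 CPM in Ctr PA and 2.01 to 7.83 in αGlu PA, with overlap. Its log2 fold change was -0.74 (95% confidence interval -1.42 to -0.073, unadjusted p = 0.0312, adjusted p = 0.993).

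The confidence intervals bound the αGlu values most closely for Timp2, Timp3 and Mmp15. For αGlu against Ctr in BSA the log2 fold change of Timp2 was -0.21 (95% confidence interval -0.59 to 0.16) and that of Timp3 was 0.15 (-0.43 to 0.73). For Mmp15 it was -0.042 (-0.39 to 0.31). Timp1 and Mmp2 were much less sharply bounded, at 0.10 (-0.96 to 1.17) and 1.03 (-0.73 to 2.79). Between the Ctr and αGlu responses to PA, the test of the difference called 0 of 8 members and 0% of all genes, with 332 genes (2.09%) and no member at an unadjusted p below 0.05, and DESeq2 also called 0 genes. Its estimate was -0.62 for Mmp14 (-1.52 to 0.29), -0.53 for Timp3 (-1.37 to 0.32) and -0.67 for Timp1 (-2.35 to 1.01).

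With the inhibitors and Mmp14 lower and Mmp15 higher, the balance among the members was different in PA. The summed TPM of the 4 TIMP genes over that of the 6 MMP genes was 0.92 to 4.81 (median 3.76) in Ctr BSA and 0.93 to 2.28 (median 1.497) in Ctr PA. The lowest Ctr BSA value was S21, the library with the Mmp3 counts, and its other 5 libraries lay at 3.17 or higher. In αGlu cells the ratio was 2.49 to 3.77 (median 3.29) in BSA and 1.06 to 1.604 (median 1.22) in PA, without overlap. Mmp15 over Mmp14 in TPM went from a median of 1.19 (0.45 to 2.10) in Ctr BSA to 4.71 (2.04 to 13.4) in Ctr PA, which overlapped, and from 1.30 (0.37 to 2.60) to 8.59 (3.78 to 25.7) in αGlu cells, which did not. The 17 other MMP genes are not in these ratios. They summed to 22.8 to 63.8 CPM in Ctr BSA and to 20.2 to 34.9 CPM in Ctr PA. In αGlu cells they summed to 18.8 to 32.6 CPM in BSA and to 21.5 to 31.1 CPM in PA. These sums are not in TPM, so how the ratios would change with these genes was not computed. The ratios are of mRNA levels and were given no test.

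**Figure D3:**
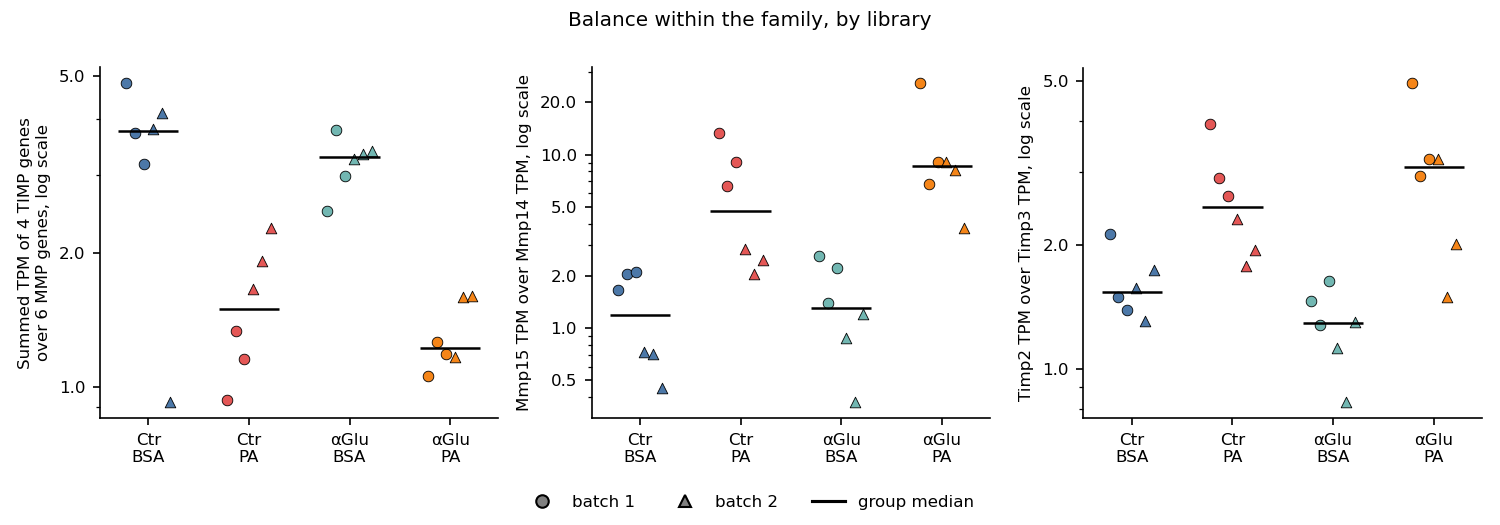
Ratios of deposited TPM in each library on log axes, with circles for batch 1, triangles for batch 2 and a bar at the group median, for all TIMP over all MMP members, Mmp15 over Mmp14 and Timp2 over Timp3. PA medians of the TIMP over MMP ratio are 1.497 and 1.22 against 3.76 and 3.29 in BSA, and the single low Ctr BSA point is S21.

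Between batches Mmp15, Mmp11 and Timp2 passed the test, and 5 members did not. Batch 2 was lower than batch 1 for Mmp15 (log2 fold change -1.60, SE 0.12, adjusted p = 9.20e-11), Mmp11 (-1.35, SE 0.26, adjusted p = 1.27e-04) and Timp2 (-0.86, SE 0.13, adjusted p = 6.37e-06), which is 3 of 8. Of all genes tested 51.5% passed between batches, and 25.4% of all genes tested passed and were lower in batch 2. Timp1 (-0.41, adjusted p = 0.414), Timp3 (-0.36, adjusted p = 0.150), Mmp14 (-0.056, adjusted p = 0.850), Mmp16 (-0.018, adjusted p = 0.955) and Mmp2 (0.51, adjusted p = 0.560) did not pass. Without S18 alone, Timp1 (-0.96) and Timp3 (-0.53) passed too. All 10 acinar markers were lower in batch 2, with a median log2 fold change of -4.40. The part of acinar RNA in the batch values of Mmp15, Mmp11 and Timp2 was not tested.

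Timp1, Timp2, Timp3 and Mmp14, which fell with both ASOs, ran with fibroblast and stellate genes across libraries. As a description over 24 libraries that share groups and batches, Spearman's rho with the summed markers of these cells was 0.95 for Timp1, 0.93 for Mmp14, 0.88 for Timp3 and 0.84 for Timp2. After the mean of each group and batch was subtracted it was 0.87, 0.81, 0.64 and 0.66 in the same order. Mmp2, which passed in neither PA comparison, had a rho of 0.81, and of 0.79 after the subtraction. Mmp11 had a rho of 0.63 with this sum and of 0.82 with the acinar sum, and of 0.69 and 0.50 after the subtraction. Mmp15 had a rho of -0.16 with this sum and of 0.72 with the acinar sum, and of 0.22 and 0.84 after the subtraction. Sums of other cell types ran with the falling members too. Timp2 had a rho of 0.77 with the acinar and of 0.75 with the ductal sum over all libraries. After the subtraction, rho with the beta-cell sum was -0.78 for Timp3, -0.73 for Timp2, -0.59 for Mmp14 and -0.28 for Timp1. The genes most like Timp1 over all libraries were Sparc, Col1a1 and Fbn1 (rho 0.97 each), all of the matrix, and after the subtraction Col1a2 (0.94), Col5a1 (0.91) and Mfap5 (0.90). Those most like Mmp14 were Sparc, Hacd4 and Fbn1 (0.96 each), those most like Timp3 Msn, Loxl1 and Cald1 (0.97, 0.97 and 0.96), and those most like Mmp2 Col3a1, Islr and Cmklr1 (0.93, 0.90 and 0.84). Mmp15 had as its nearest genes Rcan1, Atf3 and Npm1 (0.97 each) and, after the subtraction, Serpinb6a, Mboat1 and Cat (0.93, 0.92 and 0.91).

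**Figure D4:**
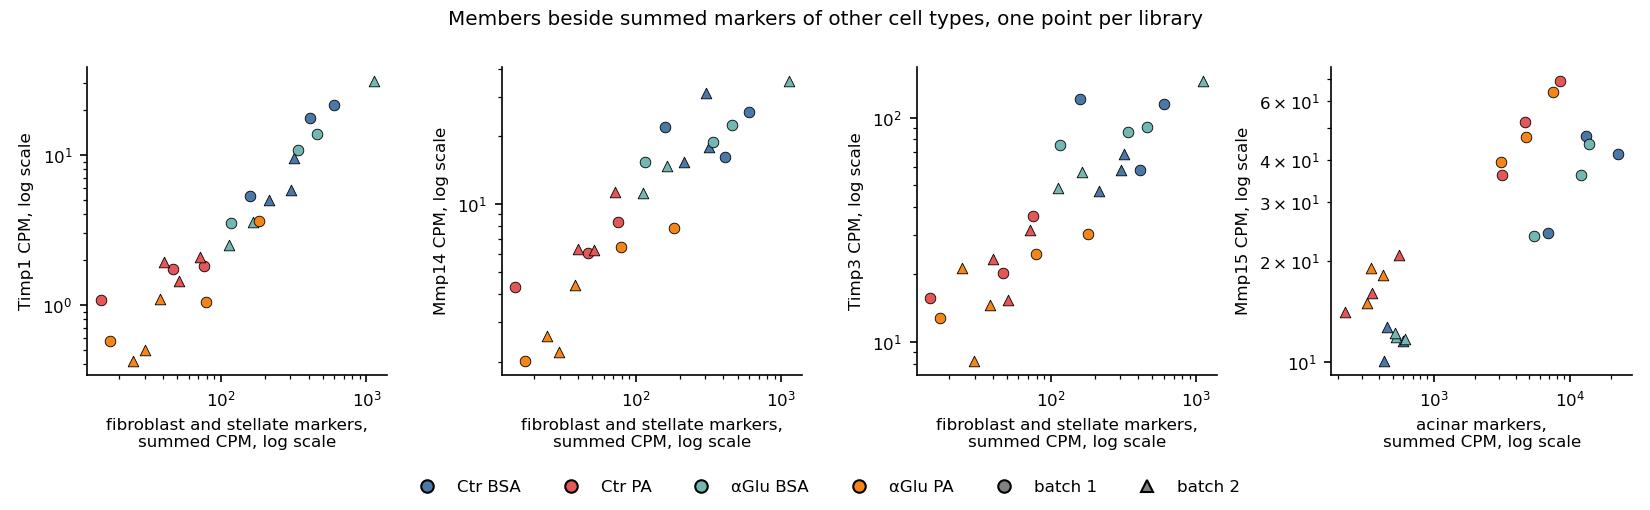
CPM of Timp1, Mmp14 and Timp3 against the summed CPM of 12 fibroblast and stellate markers, and of Mmp15 against that of 10 acinar markers, for each of 24 libraries on log axes. The first 3 members rise along the fibroblast and stellate sum, and S18, at 1121 summed CPM, sits at the top right of each.

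These marker sums moved with PA as well. The fibroblast and stellate sum was 158 to 596 CPM in Ctr BSA and 14.9 to 75.9 in Ctr PA, and 113 to 1121 in αGlu BSA and 17.4 to 182 in αGlu PA. Of 11 tested markers 10 fell with PA in Ctr cells and 8 in αGlu cells, with median log2 fold changes of -2.70 and -2.17, and none of the 12 was at 0 in a whole group. Of 10 acinar markers 8 and 7 fell (medians -1.11 and -1.02). Of 10 endothelial markers 0 passed in either comparison (medians -0.60 and -0.58), and of 11 tested macrophage markers 8 and 1 fell. The macrophage sum was 79.4 to 383 CPM in Ctr BSA and 84.7 to 129 in Ctr PA, with overlap. Its highest value was in S21, and the next in Ctr BSA was 175 CPM in S17. Of 7 ductal markers 3 fell in each comparison, of 8 Schwann and glia markers 0 passed in either, and no neutrophil marker passed the filter. The part of these cells in the fall of Timp1, Timp2, Timp3 and Mmp14 was not tested.

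Transcripts of most listed matrix proteins that MMPs cleave were lower in PA too. Of 37 tested matrix substrates 31 fell and 0 rose in Ctr cells (median log2 fold change -1.59), and 31 fell in αGlu cells (median -1.84). The smallest p in Ctr cells belonged to the basement membrane collagens Col4a3 (-3.57), Col4a5 (-2.01) and Col4a1 (-1.60). This list shares 5 genes with the fibroblast and stellate markers, so their counts are not separate. Of 21 tested ADAM and ADAMTS proteases, relatives that TIMP3 can inhibit, 13 fell and 0 rose in Ctr cells, led by Adam8 (-1.36), Adamts2 (-2.15) and Adamts12 (-2.42), while in αGlu cells 12 fell and 1 rose, with Adam19 (-3.07), Adamts12 (-2.77) and Adamts2 (-2.12) first. Of 9 other tested MMP genes only 1 fell in each comparison, where 14.5% and 14.2% of all genes did, Mmp9 in Ctr cells (-3.39, adjusted p = 0.0130) and Mmp21 in αGlu cells (-1.53, adjusted p = 0.0172). Mmp9 was at 8.77 CPM in S21 of Ctr BSA and at 0.13 to 0.47 in the other libraries of that group. In Ctr PA it was at 0.036 to 0.36 CPM, so the Mmp9 value rests largely on S21.

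Activators, inhibitors and receptors of the family moved in both directions. In Ctr cells 3 of 21 tested genes of this list rose and 7 fell, where 15.5% of all genes rose and 14.5% fell, so the share that rose was near that of all genes. In αGlu cells 2 rose and 10 fell, where 14.4% and 14.2% of all genes did. Cd63, a membrane protein to which TIMP1 binds, rose (log2 fold changes 0.78 and 0.80, adjusted p = 1.16e-07 and 9.03e-08), as did Pcsk6, a proprotein convertase (0.75 and 0.67). Plau, the urokinase that generates plasmin, fell (-2.84 and -1.80). Of the 12 AP-1 and ETS factors, families known to regulate MMP genes, 2 rose and 4 fell in Ctr cells and 2 rose and 6 fell in αGlu cells. Etv5 (0.50 and 0.62) and Etv1 (0.46 and 0.31) rose, and Junb fell (-0.57 and -0.48).

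**Figure D5:**
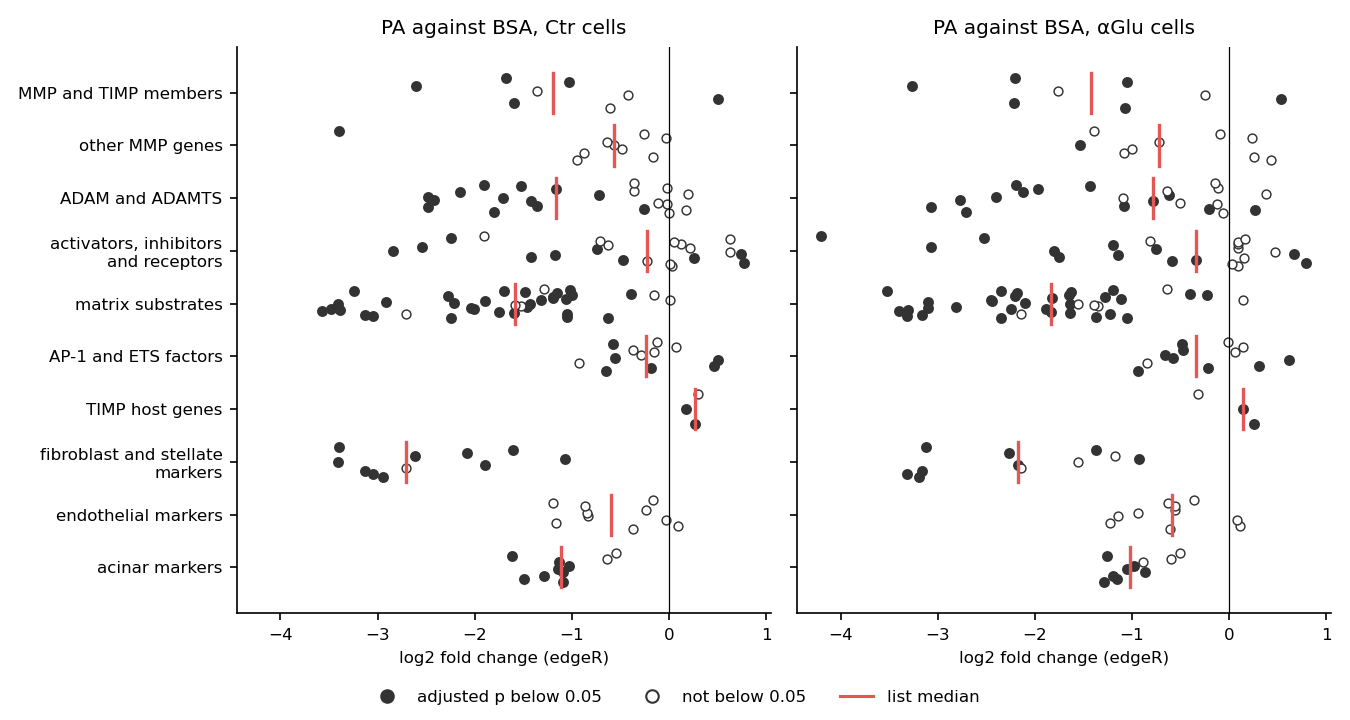
Log2 fold changes of PA against BSA in Ctr (left) and αGlu (right) cells for every tested gene of each list, with filled points at an adjusted p below 0.05 and a red line at the list median. The member medians of -1.19 and -1.42 lie between those of the fibroblast and stellate markers (-2.70 and -2.17) and of the endothelial markers (-0.60 and -0.58).

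Timp1, Timp3 and Timp4 each lie inside a synapsin gene on the opposite strand in the GENCODE M21 annotation of GRCm38. Timp1 (chrX:20870166-20874735, plus strand) lies within Syn1 and shares 0 exonic bases with it, Timp3 (chr10:86300372-86349506, plus strand) lies within Syn3 and shares 1733 of 8144 exonic bases, and Timp4 (chr6:115241892-115252205, minus strand) lies within Syn2 and shares 90 of 5894. The strand setting of the authors' counting is not given in the sources used here, so reads on the shared bases of Timp3 and Syn3 may not be told apart. The synapsins, which tether secretory vesicles, did not follow the inhibitors. Syn1 rose by a log2 fold change of 0.27 in Ctr cells and 0.26 in αGlu cells (adjusted p = 0.0154 and 0.0190) and Syn2 by 0.18 and 0.14 (adjusted p = 0.0028 and 0.0129), whereas Syn3, at 0.97 to 3.36 CPM over all libraries, had values of 0.29 and -0.31 that did not pass (adjusted p = 0.344 and 0.323). Mmp11 (chr10:75923222-75936496, minus strand) shares 155 of 2778 exonic bases with Chchd10 on the opposite strand.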

How the data were processed

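Stranded mRNA libraries were sequenced by the authors, who annotated and normalized them in QIAGEN's RNA-seq Analysis Portal. Per the labels the genome build was GRCm38, while no source used here gives the aligner, annotation release, strand setting or filters. In the deposited table are, for each gene and library, the count of reads on exons and a TPM value. Empty cells were read as 0, and 1 line without a gene (0 counts) was left out. All 24 libraries entered 1 quasi-likelihood fit of the counts with TMM scaling and terms for group and batch, in R 4.3.3 with edgeR 4.0.16. Genes needed about 10 counts in 6 libraries (filterByExpr), which left 15916. The deposited TPM served for levels between genes and CPM for levels between libraries. Standard errors came from the F statistic, and correlations used log2 CPM with a prior count of 2. The count model was tested on simulated data before use. DESeq2 1.42.0, other scalings and filters, no batch term, single batches, fewer groups and the omission of each library were alternatives. The omission of S18 with S21 and library totals without TMM were added after seeing the data. Members and gene lists were chosen with earlier results of these data known. All members are named, along with the 3 genes most like each tested member, at most 3 genes of smallest p per list and comparison, and the 3 synapsins. Of 41549 identifiers 41474 were found in GENCODE M21. Intervals and p-values cover the spread between these libraries, and reads carry no molecular identifiers.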

Additional observations from a re-analysis of the deposited data

Results flagged for a closer look

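In 39 sets of a member and a group with any count, 6 had a highest library that stood apart by a gap over the range above 0.625. Chance passes about 1 set in 20 where values are normally distributed, which was not checked for these CPM. Mmp3 in S21 of Ctr BSA was at 32.8 CPM (929 counts), where the other 5 libraries were at 0.0919 or lower. Mmp2 in S18 of αGlu BSA was at 36.3 CPM (914 counts), and the others at 0.77 to 3.86. Timp1 in S8 of αGlu PA was at 3.59 CPM (93 counts), and the others at 0.42 to 1.09. The other three rest on 1 or 2 counts: Mmp3 in S18 of αGlu BSA at 0.0397 CPM, Timp4 in S2 of αGlu BSA at 0.0352 CPM and Timp4 in S24 of αGlu PA at 0.0806 CPM, each with 0 in the other libraries of its group. In such sets, with counts in 1 library only, the gap over the range is 1 by construction. The fits without S18 and without S18 and S21 together are given with the results they touch. The cause of these values was not tested.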

How the results depend on the processing

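PA lowered 4 members and raised 1 in Ctr cells, and lowered 5 and raised 1 in αGlu cells. Members called fell from 5 to 3 in Ctr cells with batch 2 alone, and from 6 to 3 in αGlu cells with batch 1 alone. Without S18 and S21, 5 members passed between batches in place of 3. With 1 library left out, 4 to 5 members passed in Ctr, 5 to 6 in αGlu cells, 3 to 5 between batches and 0 for each αGlu contrast and for the difference between PA responses. The calls of Mmp15 were lost without the batch term (adjusted p = 0.536 and 0.520), and in Ctr cells with those 2 groups alone (0.0503), where Mmp2 passed (0.0207). Mmp11 in αGlu cells lost its call without the batch term (0.266) and without S18 and S21 (0.122). Over all genes, calls were 4772 in Ctr and 4543 in αGlu cells, 2312 and 2271 without the batch term, 2033 and 1644 in batch 1 alone and 1833 and 1902 in batch 2 alone, where fewer libraries entered. The cause of the other changes was not tested.

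The values that changed sign had all missed the threshold with all libraries in the fit. In batch 1 alone the αGlu against Ctr log2 fold change in BSA was 0.087 for Mmp16, -0.23 for Mmp2, -0.67 for Timp1 and -0.22 for Timp3. In PA it was 0.11 for Mmp16, 0.14 for Timp1 and 0.12 for Timp2. The difference between PA responses was 2.16 for Mmp2, 0.81 for Timp1, 0.45 for Timp2 and 0.13 for Timp3, and the PA effect in αGlu cells was 0.41 for Mmp2. In batch 2 alone αGlu against Ctr was 0.054 for Mmp15 in BSA and, in PA, 0.14 for Mmp11, 0.041 for Mmp15 and -2.30 for Mmp2. The difference was -0.013 for Mmp15, and the PA effect in αGlu cells 0.12 for Mmp16. Without S18 and S21, αGlu against Ctr in BSA was -0.60 for Mmp2, -0.85 for Timp1 and -0.19 for Timp3, the difference 0.72 for Mmp2, 0.19 for Timp1 and 0.10 for Timp2, and batch 2 against batch 1 0.080 for Mmp16 and -0.60 for Mmp2. The difference for Timp2 was 0.11 without the batch term and 0.00060 with upper-quartile scaling, and αGlu against Ctr in PA was -0.014 for Mmp2 with only those groups.

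With each library left out in turn, αGlu against Ctr in BSA ran from -0.90 to 1.33 for Mmp2, -0.14 to 0.063 for Mmp15, -0.17 to 0.27 for Timp3, -0.41 to 0.039 for Mmp14 and -0.80 to 0.36 for Timp1. In PA it ran from -0.27 to 1.02 for Mmp2, -0.11 to 0.096 for Mmp15 and -0.36 to 0.22 for Mmp11. The difference ran from -1.25 to 1.11 for Mmp2, -0.078 to 0.14 for Mmp15, -0.17 to 0.17 for Timp2 and -1.26 to 0.13 for Timp1, and the batch contrast from -0.13 to 0.081 for Mmp16, -0.41 to 0.77 for Mmp2 and -0.21 to 0.036 for Mmp14. No paired analysis was possible because the labels give each library its own number and do not say which libraries came from the same animal, so the spread between animals stays in the errors. Mmp3 and Timp4 were tested only without the filter on low counts, where Mmp3 passed for PA in Ctr cells (adjusted p = 0.00198), with 929 of its 949 counts in S21, and in no other comparison, and Timp4 passed in none.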

Other observations

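For the remaining tested members the genes with the most similar levels were of other kinds. Over all 24 libraries, which share groups and batches, Timp2 ran with Actb, Peak1 and Ldha (Spearman's rho 0.97 each) and, once the mean of each group and batch was subtracted, with Tgfbr2, Calu and Stk17b (0.93, 0.91 and 0.89). Mmp11 ran with Mdfic, Ptgfrn and Acot7 (0.95, 0.92 and 0.92), and Ptgfrn was also its nearest gene after the subtraction (0.88). Mmp16 ran with Strn, Nup155 and Yod1 (0.78, 0.76 and 0.76) and, after the subtraction, with Klhl14, Dnajc10 and Camk2d (0.85, 0.84 and 0.81). Mmp14 after the subtraction was nearest to Ppp1r18 (0.92), Timp3 to Pmepa1 (0.93) and Mmp2 to Pdgfra (0.89), the PDGF receptor that marks fibroblasts. These are descriptions with no test. Among members, Mmp14 and Timp3 had a rho of 0.95 over all libraries and 0.81 after the subtraction, and Timp2 and Timp3 0.89 and 0.87.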
